A study of Mus musculus with 48 samples.

Results

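The genes described here make, break down or sense prostaglandins, and they were followed in a mouse model of Barrett oesophagus, in which columnar lining replaces squamous lining at the lower oesophagus. The set held 7 genes, Ptgs1, Ptgs2, Ptges, Ptgds, Hpgd, Ptger2 and Ptger4, each read through the brightest probe set that carried its symbol alone. A probe set was found for 6 of the 7, out of 22180 symbols on the array. Ptgs1, the constitutive cyclooxygenase, was not analysed here. Of the 6, 5 passed the filter on low signal and were among the 15242 genes tested, and Ptger2 did not pass.

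Whole tissue of the squamocolumnar junction and cardia was profiled on 48 Affymetrix arrays, 1 per sample, in 16 groups of 3. The pL2 transgene drives interleukin-1 beta (IL-1 beta) in the squamous lining, and it was present in every group except WT and FXR. All Notch, IL8 and FXR lines, and the pL2 and WT groups compared with them, were kept on chow at the facility labelled MRI. Of the Notch lines, pL2_Dclk_Notch2IC_LacZ and pL2_Lgr5_Notch2IC_LacZ carry the intracellular part of Notch2, which acts as an activated receptor. The lines pL2_Dclk_Notch2fl_fl, pL2_Lgr5_Notch2fl_fl, pL2_Dclk_Notch1fl_fl and pL2_Lgr5_Notch1fl_fl carry floxed Notch alleles. Dclk1 marks tuft cells and Lgr5 marks stem cells, and the share of cells whose alleles were changed was not measured here. The Notch mice received tamoxifen at 3 to 6 months of age and were taken at 9 to 13 months, whereas the labels give no tamoxifen for pL2 mice without a Notch allele. The other groups were pL2_IL8 at 12 and at 9 months, and, all at 12 months, pL2_FXR, pL2, FXR and WT at MRI, and pL2 and WT on high fat diet (HFD) or chow at the Freising facility. The labels state neither sex nor litter, nor what was done to FXR, the bile acid receptor. Nothing says that the mice of a group were independent animals of separate litters. The p-values set differences against the spread between samples within groups, pooled over all 16 groups, which need not be that of independent animals.

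Prostaglandins are short-lived lipids made from arachidonic acid. A cyclooxygenase (Ptgs1 or the inducible Ptgs2) makes the unstable precursor PGH2, and terminal synthases such as Ptges and Ptgds turn it into PGE2 or PGD2. The dehydrogenase encoded by Hpgd inactivates PGE2 once the transporter Slco2a1 has carried it into the cell, and the receptors encoded by Ptger2 and Ptger4 raise cyclic AMP when PGE2 binds. In the upper gut, PGE2 protects the gastric mucosa, and Ptgs2 is induced in inflamed and preneoplastic lining by signals that include IL-1 beta through NF-kB.

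The promoter windows of Ptgs2, Ptger4 and Hpgd are printed because, over the 16 group means, Ptger4 ran most like Ptgs2 among these genes and Hpgd ran opposite to it. Each window holds the 250 bases before the annotated start in RefSeq (GRCm38.p6), read 5′ to 3′ on the gene's strand, and capitals mark matches on either strand to GGG and CC with any 5 bases between them, a form of the NF-kB motif, or to GGGCGG, the GC box.
Ptgs2, chr1:150099781-150100030, plus strand: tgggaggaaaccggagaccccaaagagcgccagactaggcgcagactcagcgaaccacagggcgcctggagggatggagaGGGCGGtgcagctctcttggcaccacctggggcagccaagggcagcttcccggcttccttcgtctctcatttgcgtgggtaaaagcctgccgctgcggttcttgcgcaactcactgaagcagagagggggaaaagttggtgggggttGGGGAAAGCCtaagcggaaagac
Ptger4, chr15:5244188-5244437, minus strand: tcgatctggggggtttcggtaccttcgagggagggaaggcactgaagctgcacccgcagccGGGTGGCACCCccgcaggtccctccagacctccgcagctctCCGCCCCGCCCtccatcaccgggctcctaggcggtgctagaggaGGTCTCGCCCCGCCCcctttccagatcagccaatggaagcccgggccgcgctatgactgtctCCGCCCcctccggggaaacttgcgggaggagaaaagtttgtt
Hpgd, chr8:56294302-56294551, plus strand: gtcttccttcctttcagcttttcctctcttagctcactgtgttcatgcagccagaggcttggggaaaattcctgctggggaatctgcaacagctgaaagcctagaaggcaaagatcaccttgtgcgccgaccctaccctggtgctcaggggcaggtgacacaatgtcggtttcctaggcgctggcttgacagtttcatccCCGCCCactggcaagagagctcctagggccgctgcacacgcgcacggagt
The Ptgs2 window held 1 match to the NF-kB letters, GGGGAAAGCC, and 1 GC box. Ptger4 held 3 NF-kB matches, some overlapping each other or a GC box, and 4 GC boxes, and Hpgd held no NF-kB match and 1 GC box on its opposite strand. Such matches are common: 45.8% of 32851 windows of this length held the NF-kB letters and 32.7% the GC box. The windows of Ptges and Ptgds also held 1 NF-kB match each, and Ptger2 and Ptgs1 held none. No window of the set held TGACG, a short site for the cyclic AMP response factor, which 17.8% of windows hold. Bases after the annotated start, or further before it than the window, were not searched, so sites there are not counted.

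Signals are on the log2 scale throughout, and a difference of 1 is a doubling. The 48 array medians lay between 4.03 and 4.27, and arrays of 1 group correlated at r = 0.918 to 0.989 over all probe sets. The gastric pit markers averaged 11.9 to 12.7 and the squamous suprabasal markers 8.12 to 10.9 in every group, so both linings were sampled in all 16. One limma model with a mean for each group was fitted to all 48 arrays, and a gene was called where its Benjamini-Hochberg adjusted p lay below 0.05 over the 15242 genes. Errors beside differences are standard errors from this model. In bulk tissue, fewer cells of a type and less RNA per cell cannot be told apart.

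Few differences in the set passed the test. Over 23 comparisons, 1 of 115 pairs of gene and comparison was called, or 0.87%, against 2.86% of all such pairs over the tested genes. Pairs that did not pass are not shown to be alike: Ptges group means spanned 1.38 log2 units and Ptgs2 means 1.15. At an unadjusted p below 0.05 there were 12 pairs, or 10.4%, against 13.8% of all pairs. These were 7 pairs of Hpgd and 5 of Ptges, and none of Ptgs2, Ptgds or Ptger4. In the 18 comparisons of 2 groups, the arrays did not overlap in 14 of 90 pairs, or 15.6%, against 17.8%. The called pair was Hpgd in pL2 against WT mice at MRI.

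Ptgs2, the inducible cyclooxygenase, ranged over 2.47 log2 units, the widest span of the set, and much of it lay within groups. Its group means ran from 6.07 ± 0.86 in pL2_IL8 at 9 months, through 5.90 ± 0.56 in pL2 at MRI, down to 4.92 ± 0.38 in WT on HFD (SD, n = 3). The 3 arrays of pL2_IL8 at 9 months read 5.47, 7.05 and 5.71, and those of pL2 on HFD read 4.83, 6.51 and 5.46. In both groups 1 array stood well above the other two. The pL2_Lgr5_Notch2IC_LacZ arrays read 6.34, 6.29 and 4.63, with 1 array far below its partners. Differences between groups held 37.9% of the sum of squares of Ptgs2 over the 48 arrays. Means of 3 arrays hold part of such a sum even where groups do not differ, and that part was not subtracted.

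Ptges, the inducible terminal synthase that works with Ptgs2, varied more between groups, which held 61.7% of its sum of squares. It was highest in the IL8 line, at 6.12, 6.62 and 6.31 at 9 months and 6.24, 5.89 and 6.48 at 12 months. It was lowest in FXR and WT mice at MRI, with 5.22, 4.88 and 5.26 in FXR and 5.15, 5.05 and 4.72 in WT. No array of the IL8 line overlapped with these 6 arrays, but the groups were picked as the highest and lowest, and this was not tested. They also differ in the transgene and in sample title series. Ptgds, a synthase of PGD2, lay close to the array median, above it in 35 of 48 arrays, between 3.76 and 4.94. Its highest group means were also those of the IL8 line, 4.63 ± 0.09 at 9 months and 4.59 ± 0.23 at 12 months, and its lowest was 4.08 ± 0.24 in pL2 mice on chow at Freising.

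Hpgd, the enzyme that inactivates PGE2, was strongly detected in every array, between 9.74 and 11.31, against array medians near 4. Its group means spanned 0.87 log2 units, the highest being 11.11 ± 0.17 in pL2_Dclk_Notch2fl_fl and 10.96 ± 0.07 in WT at MRI. The lowest were 10.24 ± 0.50 in pL2_Lgr5_Notch2IC_LacZ and 10.35 ± 0.06 in pL2 at MRI. The 2 lowest single arrays belonged to the activated Notch2 lines, 9.74 in pL2_Lgr5_Notch2IC_LacZ and 9.87 in pL2_Dclk_Notch2IC_LacZ.

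Ptger4, the PGE2 receptor also called EP4, was above the array median in all 48 arrays, from 5.91 to 7.65. Its means were highest in the activated Notch2 lines, 7.11 ± 0.50 in pL2_Dclk_Notch2IC_LacZ and 7.06 ± 0.24 in pL2_Lgr5_Notch2IC_LacZ. They were lowest in WT on HFD, at 6.17 ± 0.17, and in pL2 on chow at Freising, at 6.29 ± 0.30. Ptger2, the related EP2 receptor, exceeded the array median in 1 of 48 arrays, 4.29 in pL2_IL8 at 9 months, and is described without a test except where stated. Its arrays read 3.50, 2.68 and 3.33 in pL2 at MRI, against 3.94, 3.92 and 3.86 in WT at MRI. With no filter on low signal, Ptger2 differed by -0.74 ± 0.18 there (adjusted p = 0.00459, limma) and by -0.41 ± 0.18 on chow at Freising (adjusted p = 0.325). As the mean of both facilities, Ptger2 differed by -0.57 ± 0.13 in pL2 against WT in that fit (adjusted p = 0.00224, limma). All pL2 and WT arrays of these comparisons lay below the lowest array median, 4.03, in Ptger2. The share of all genes called without the filter is not given here. With the filter, 23% of tested genes were called at MRI and 21.9% as the mean of both facilities.

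For each of the 6 measured genes, the 16 group means formed a nearly continuous order. In all 15 pairs of neighbours in that order, for every gene, the ranges of mean ± SD overlapped. Neighbours among 16 sorted means lie close by construction, so this overlap does not show whether groups differ.

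**Figure D1:**
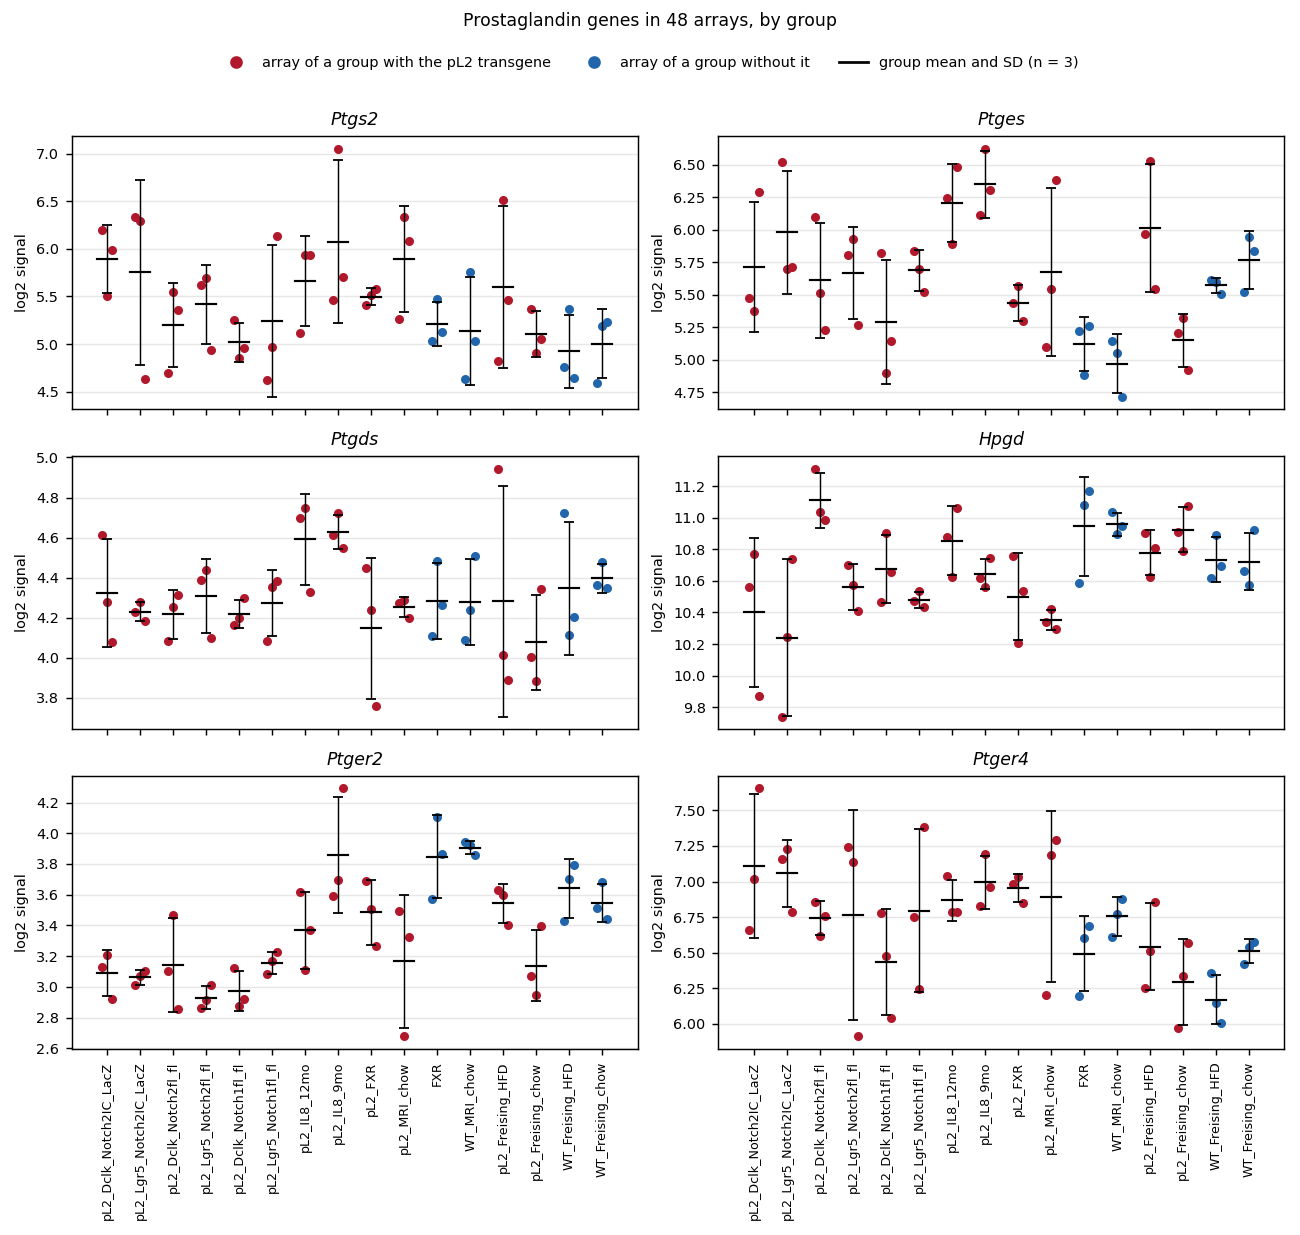
Log2 signal of the 6 measured prostaglandin genes in each of the 48 arrays (points), with group means and SD (lines, n = 3), for the 16 groups along the horizontal axis; red points are groups with the pL2 transgene and blue points WT and FXR groups. Ptges stands highest in the 2 IL8 groups, Hpgd lowest in pL2 at MRI and in pL2_Lgr5_Notch2IC_LacZ, and the spread of Ptgs2 within groups is wide.

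The first question was how the IL-1 beta transgene acts on these genes. At MRI, Hpgd fell in pL2 mice: its arrays read 10.34, 10.42 and 10.29 in pL2, against 11.04, 10.90 and 10.95 in WT. The groups did not overlap, as in 36.6% of all tested genes, and the difference was -0.61 ± 0.20 (adjusted p = 0.0213, limma), 1.53-fold lower. Hpgd was the 1 of 5 tested genes called, where 23% of all tested genes were called in this comparison. Leaving out 1 array kept the difference between -0.64 and -0.57, but the adjusted p was 0.0764 without WT replicate 1, 0.0510 without WT replicate 3 and 0.0669 without pL2 replicate 3.

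The cell type markers moved strongly in the same comparison. All 6 neutrophil markers rose, their mean lying between 7.07 and 8.59 in pL2 arrays and between 4.23 and 5.65 in WT arrays. All 7 smooth muscle markers fell, with means of 8.15 to 10.11 in pL2 arrays and 11.08 to 11.54 in WT arrays. All 7 fibroblast, 6 endothelial and 5 tested skeletal muscle markers fell as well, 5 of 6 macrophage markers fell and 1 rose, and none of 5 gastric pit markers was called. With the smooth muscle mean as a covariate, chosen after the data were seen, the Hpgd difference was -0.48 ± 0.23 (adjusted p = 0.186). With the neutrophil mean as a covariate, also chosen then, it was -0.22 ± 0.27 (adjusted p = 0.654), and with the squamous and skeletal muscle means it was -0.51 ± 0.26 (adjusted p = 0.296).

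The synthesis genes did not pass the test at MRI. Ptges read 5.10, 5.54 and 6.38 in pL2, against 5.15, 5.05 and 4.72 in WT, a difference of 0.70 ± 0.29 (adjusted p = 0.0721). All 3 pL2 arrays lay above the WT mean, but 1 of them fell within the WT range. The difference was 0.99 ± 0.31 without that array, pL2 replicate 1 (adjusted p = 0.0166), and 0.35 ± 0.30 without pL2 replicate 3, the highest (adjusted p = 0.458). Ptgs2 read 5.27, 6.33 and 6.09 in pL2, against 4.64, 5.75 and 5.03 in WT, and differed by 0.76 ± 0.43 (adjusted p = 0.215), with a 95% interval of -0.12 to 1.63. Ptger4 differed by 0.14 ± 0.29 and Ptgds by -0.03 ± 0.20, with adjusted p of 0.781 and 0.951.

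On chow at Freising, none of the 5 genes was called, where 1.64% of all tested genes were. Ptges lay the other way from MRI: 5.21, 5.32 and 4.92 in pL2, against 5.52, 5.94 and 5.83 in WT. The groups did not overlap, with a difference of -0.61 ± 0.29 (adjusted p = 0.279, limma). Ptgds was also lower in all pL2 arrays, at 4.00, 3.88 and 4.34, against 4.36, 4.48 and 4.35 in WT, a difference of -0.32 ± 0.20 (adjusted p = 0.430). Non-overlapping arrays were common there, in 26.5% of all tested genes. Hpgd read 10.91, 10.79 and 11.07 in pL2 and 10.66, 10.58 and 10.92 in WT, and Ptgs2 read 5.37, 4.90 and 5.05 in pL2 and 4.59, 5.19 and 5.23 in WT. Their differences were 0.20 ± 0.20 and 0.11 ± 0.43. All pL2 sample titles on chow at Freising carry a suffix and no WT title does, so genotype and title suffix cannot be told apart there.

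The difference between the facilities was itself tested. The transgene difference in Ptges was 1.32 log2 units lower at Freising than at MRI (-1.32 ± 0.41, unadjusted p = 0.00258, adjusted p = 0.0770). In Hpgd it was higher at Freising, by 0.81 ± 0.28 (unadjusted p = 0.00566, adjusted p = 0.103). Neither passed, so 0 of 5 genes were called, where 1.76% of all tested genes were called and 18.8% had an unadjusted p below 0.05. As the mean of both facilities, none of the 5 tested genes was called either, where 21.9% of all tested genes were, and the differences ran from -0.20 ± 0.14 in Hpgd to 0.43 ± 0.31 in Ptgs2.

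On HFD at Freising, again 0 of 5 genes were called, where 1.16% of all tested genes were. Ptgs2 read 4.83, 6.51 and 5.46 in pL2 and 4.76, 5.36 and 4.65 in WT, a difference of 0.68 ± 0.43 (adjusted p = 0.499). Ptges differed by 0.44 ± 0.29, Ptger4 by 0.37 ± 0.29 and Hpgd by 0.04 ± 0.20. The pL2 array with the highest Ptgs2, replicate 2, also had the highest neutrophil marker mean of its group, 9.05, where the group's lowest was 6.05. Without it, the Ptgs2 difference was 0.22.

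**Figure D2:**
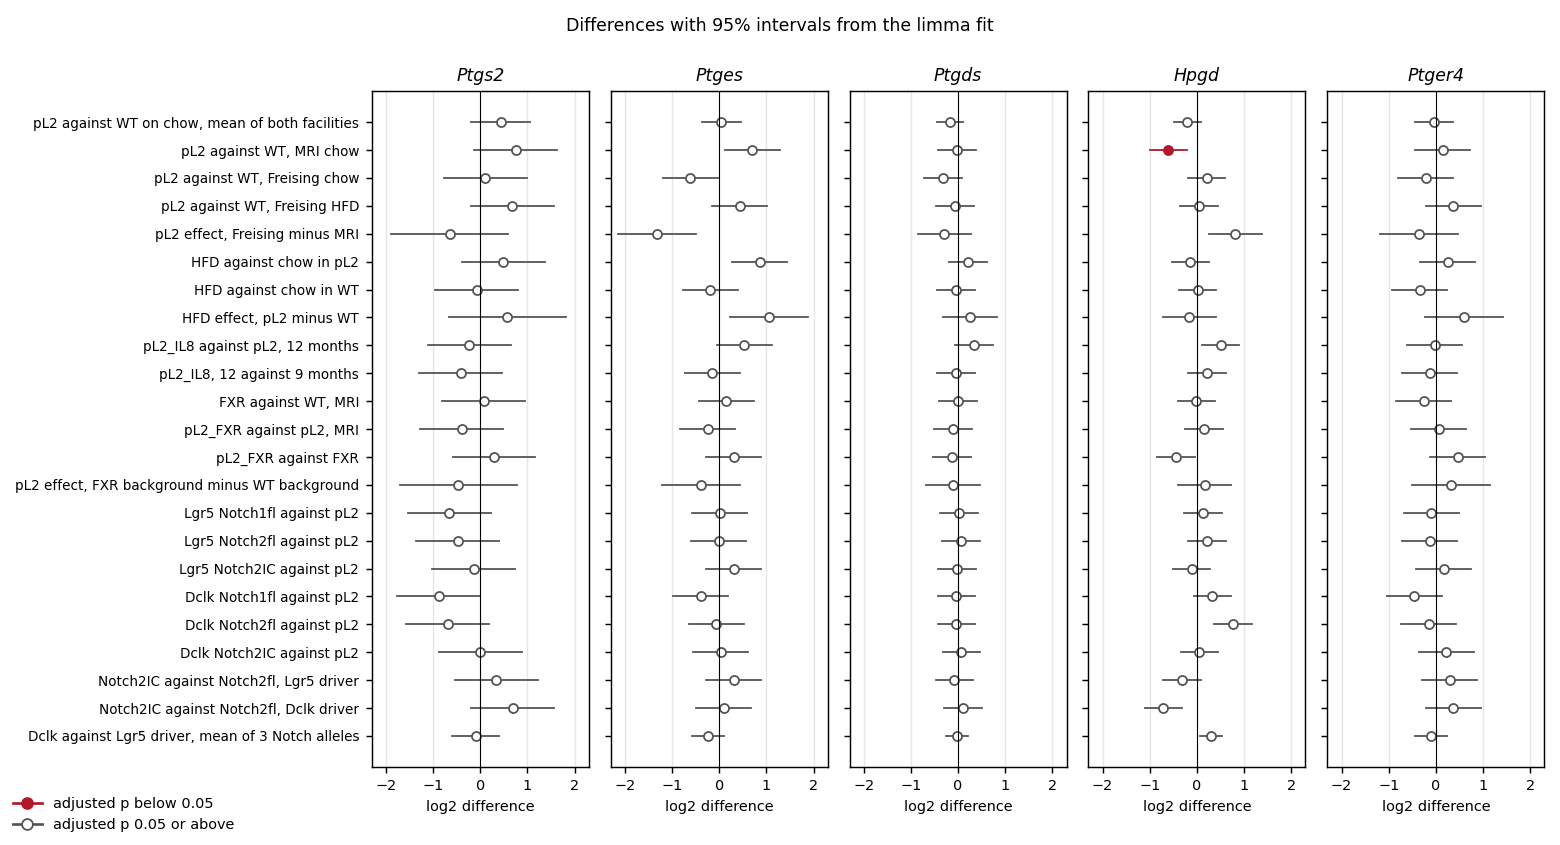
Log2 differences of the 5 tested genes (horizontal axis) with 95% intervals from the limma fit in all 23 comparisons (rows), each named with the group on top of the difference first. The filled red point, Hpgd in pL2 against WT at MRI on chow (-0.61), has an adjusted p below 0.05, and open points do not.

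The diet question was asked within each genotype at Freising. In pL2 mice, Ptges read 5.97, 6.53 and 5.54 on HFD, against 5.21, 5.32 and 4.92 on chow. All HFD arrays lay above all chow arrays, with a difference of 0.86 ± 0.29, where 10.8% of all tested genes had groups that did not overlap. The adjusted p was 0.653 (unadjusted 0.00494, limma), and none of the 15242 genes was called in this comparison, where 5.72% had an unadjusted p below 0.05. The mean of 20 IL-1 and NF-kB target genes was 6.10 to 7.93 on HFD and 5.81 to 5.99 on chow in pL2, and the macrophage mean 6.86 to 7.53 on HFD and 5.88 to 6.52 on chow, both without overlap, and their part in the Ptges difference was not tested. In WT mice Ptges read 5.62, 5.60 and 5.50 on HFD and 5.52, 5.94 and 5.83 on chow, a difference of -0.19 ± 0.29. There 0 of 5 genes were called, where 0.164% of all tested genes were. The diet difference of Ptges in pL2 exceeded that in WT by 1.05 ± 0.41 (unadjusted p = 0.0137, adjusted p = 0.774), and 0.0197% of all tested genes were called for this difference of effects. Ptger4 was lower on HFD in all WT arrays, 6.35, 6.15 and 6.01, against 6.42, 6.54 and 6.58 on chow, by -0.34 ± 0.29, which did not pass; 15.8% of all tested genes had no overlap there. The remaining diet differences ran from -0.14 to 0.49 in pL2 and from -0.08 to 0.02 in WT, and none passed.

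IL8 is a human neutrophil attractant that mice lack. At 12 months, Hpgd read 10.88, 10.63 and 11.06 in pL2_IL8, against 10.34, 10.42 and 10.29 in pL2, without overlap, a difference of 0.50 ± 0.20 (adjusted p = 0.164, limma), where 21.4% of all tested genes had no overlap. All 6 endothelial markers rose in pL2_IL8, their mean being 7.53 to 7.73 in pL2_IL8 and 5.17 to 6.83 in pL2. The fibroblast mean (7.99 to 8.34 in pL2_IL8, 6.58 to 7.96 in pL2) and the macrophage mean (6.85 to 7.02 in pL2_IL8, 5.78 to 6.39 in pL2) did not overlap either, and their part in the Hpgd difference was not tested. Ptgds read 4.70, 4.75 and 4.33 in pL2_IL8, against 4.27, 4.29 and 4.20 in pL2, also without overlap, a difference of 0.34 ± 0.20 (adjusted p = 0.389). Ptges differed by 0.53 ± 0.29 (adjusted p = 0.350) and Ptgs2 by -0.24 ± 0.43 (adjusted p = 0.842). None of the 5 was called, where 1.82% of all tested genes were. Within the IL8 line, 12 against 9 months gave differences from -0.42 ± 0.43 in Ptgs2 to 0.21 ± 0.20 in Hpgd, and no gene of the array was called by limma, where 7.77% had an unadjusted p below 0.05. The IL8 and Notch lines carry other sample title series than pL2 mice at MRI, and the effect of a genotype cannot be told apart from that of a series there.

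The FXR lines showed no call in the set. The FXR arrays stood apart in the lining they held: the squamous basal mean was 6.21 to 7.34 in FXR and 7.94 to 8.98 in WT, the squamous suprabasal mean 7.69 to 8.46 in FXR and 9.53 to 10.46 in WT, and the skeletal muscle mean 4.62 to 5.52 in FXR and 6.88 to 7.86 in WT. The squamous means of pL2_FXR, 8.04 to 8.96 and 9.44 to 10.14, also lay above those of FXR. Their part in the results with FXR mice as a group was not tested, other than by the covariates given. Without the transgene, FXR against WT differed by between -0.26 in Ptger4 and 0.15 in Ptges, where 2.12% of all tested genes were called. Against pL2, the pL2_FXR cross differed by between -0.40 in Ptgs2 and 0.15 in Hpgd, where 0.0853% were called. The transgene within the FXR background was the nearest counterpart of the MRI comparison: Hpgd read 10.76, 10.21 and 10.54 in pL2_FXR, against 10.59, 11.08 and 11.17 in FXR, a difference of -0.44 ± 0.20 (adjusted p = 0.137), where 10.1% of all tested genes were called. Ptger4 read 6.98, 7.03 and 6.85 in pL2_FXR, against 6.19, 6.60 and 6.68 in FXR, without overlap, as in 31.6% of all tested genes, a difference of 0.46 ± 0.29 (adjusted p = 0.319). Ptges was also without overlap there, 0.31 ± 0.29 higher (adjusted p = 0.531). The transgene difference in the FXR background minus that in the WT background was 0.16 ± 0.28 for Hpgd, with a 95% interval of -0.40 to 0.72, and 0.138% of all tested genes were called for it.

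Among the Notch lines, no Hpgd difference passed in the fit of all 48 arrays. The lowest unadjusted p of the set was that of Hpgd in pL2_Dclk_Notch2fl_fl. Hpgd read 11.31, 11.04 and 10.99 there, against 10.34, 10.42 and 10.29 in pL2, without overlap, as in 20% of all tested genes. The difference of 0.76 ± 0.20 had an unadjusted p of 0.000411 and an adjusted p of 0.0866 (limma), where 0.256% of all tested genes were called, and the neutrophil marker mean was 6.26 to 6.88 in pL2_Dclk_Notch2fl_fl arrays and 7.07 to 8.59 in pL2 arrays. With the neutrophil mean as a covariate, Hpgd differed by 0.60 ± 0.20 (adjusted p = 0.243). With the Xist signal as a covariate, since the labels give no sex, Hpgd differed by 0.90 ± 0.20 and passed (adjusted p = 0.0380). Hpgd also did not overlap with pL2 in pL2_Dclk_Notch1fl_fl (0.32 ± 0.20) and in pL2_Lgr5_Notch1fl_fl (0.13 ± 0.20). Over all comparisons of 2 groups, 17.8% of all pairs did not overlap. The pL2 arrays that serve as reference lay close together in Hpgd, at 10.35 ± 0.06 (SD).

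With activated in place of floxed Notch2 under the Dclk driver, Hpgd read 10.56, 10.77 and 9.87, against 11.31, 11.04 and 10.99, again without overlap, as in 13.6% of all tested genes. The difference was -0.71 ± 0.20 (unadjusted p = 0.000843, adjusted p = 0.564), where 0.0328% of all tested genes were called. Under the Lgr5 driver the same contrast read 9.74, 10.25 and 10.74 in pL2_Lgr5_Notch2IC_LacZ, against 10.70, 10.58 and 10.41 in pL2_Lgr5_Notch2fl_fl, with overlap and a difference of -0.32 ± 0.20 (adjusted p = 0.768), where 0.0722% were called. Over the 3 Notch alleles, Hpgd was 0.30 ± 0.11 higher in the Dclk than in the Lgr5 lines (adjusted p = 0.173), where 0.945% were called. Leaving out 1 of the 18 arrays gave 0.22 to 0.39 with adjusted p of 0.0378 to 0.349, and the difference passed in 2 of these fits, without replicate 3 of pL2_Lgr5_Notch2IC_LacZ (0.38) or of pL2_Dclk_Notch2IC_LacZ (0.39). The Lgr5 mice received tamoxifen at 3 to 5 months and were taken at 9 to 11 months. The Dclk mice received it at 5 to 6 months and were taken at 10 to 13 months, so driver and age cannot be fully told apart.

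The Notch lines also differed in intestinal markers, 6 genes such as Vil1 and Fabp2. Their mean was 3.99 to 7.87 in the Dclk arrays and 4.83 to 9.30 in the Lgr5 arrays. It exceeded 7 in 5 arrays, 1 each of pL2_Dclk_Notch1fl_fl, pL2_Dclk_Notch2fl_fl and the 3 Lgr5 lines, and reached at most 6.47 in every other array of the study. Over deviations within groups, Hpgd and this mean had r = 0.39 over the 48 arrays. With those 5 arrays left out, a setting chosen after the data were seen, no gene of the set was called in a comparison with a Notch line. Hpgd then differed by 0.66 ± 0.20 in pL2_Dclk_Notch2fl_fl against pL2 (adjusted p = 0.202), by -0.61 ± 0.20 for activated against floxed Notch2 under the Dclk driver (adjusted p above 0.99), by -0.56 ± 0.22 under the Lgr5 driver (adjusted p = 0.277), and by 0.31 ± 0.12 between the drivers (adjusted p = 0.240).

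Ptgs2 was lower in pL2_Dclk_Notch1fl_fl, with 5.25, 4.85 and 4.96, against 5.27, 6.33 and 6.09 in pL2. The arrays narrowly did not overlap, as in 16.1% of all tested genes, and the difference was -0.88 ± 0.43 (adjusted p = 0.482). None of the tested genes was called by limma in that comparison, where 10.4% had an unadjusted p below 0.05. In the other 4 Notch lines against pL2, none of the set was called, where 0.144% of all tested genes were in pL2_Lgr5_Notch1fl_fl, 0.0525% in pL2_Lgr5_Notch2fl_fl, 0.138% in pL2_Lgr5_Notch2IC_LacZ and 0.0197% in pL2_Dclk_Notch2IC_LacZ. The Ptgs2 differences there ran from -0.65 in pL2_Lgr5_Notch1fl_fl to -0.002 in pL2_Dclk_Notch2IC_LacZ. The pL2 group at MRI is the reference of 8 of these comparisons, those with the IL8, FXR and Notch lines, and is set against WT in another. It is also part of the mean of both facilities, the facility difference and the difference between the FXR and WT backgrounds. Its low Hpgd mean, above that of pL2_Lgr5_Notch2IC_LacZ alone, therefore enters all of them.

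The wider prostanoid pathway was described with a list of 23 further genes, of which 20 were matched and 18 tested. As the mean of both facilities, 2 of these rose and 6 fell in pL2 against WT on chow, where 21.9% of all tested genes were called, with a median difference of -0.17 over the 18 and of -0.01 over all tested genes. The genes that fell were 4 receptors and 2 synthases. Ptger3, the EP3 receptor for PGE2, fell by 1.61 (-1.61 ± 0.31, adjusted p = 0.000394), and Ptgfr, the PGF2 alpha receptor, by 1.01 (± 0.19, adjusted p = 0.000396). The thromboxane receptor Tbxa2r (-0.90 ± 0.21) and the prostacyclin receptor Ptgir (-0.77 ± 0.17) also fell. Ptgis, the prostacyclin synthase of vessels and smooth muscle, fell by 1.56 (± 0.33, adjusted p = 0.000946), and the thromboxane synthase Tbxas1 by 0.33 (± 0.12, adjusted p = 0.0376). The Tbxas1 call held in 4 of 12 fits with 1 array left out, and the other 7 calls of this comparison in all 12. The 2 genes that rose were the PGD2 synthase Hpgds (0.77 ± 0.23, adjusted p = 0.0135) and Abcc4, an exporter of prostaglandins (0.67 ± 0.19, adjusted p = 0.0119).

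At MRI alone, 3 of the 18 rose and 5 fell, where 23% of all tested genes were called. Ptgis read 5.39, 3.99 and 4.14 in pL2, against 7.53, 6.28 and 6.56 in WT, and Ptger3 read 5.29, 4.34 and 4.58 in pL2, against 6.97, 6.66 and 6.75 in WT. Neither overlapped, with differences of -2.28 ± 0.46 and -2.06 ± 0.44. The PGE2 transporter Slco2a1 read 9.73, 10.24 and 10.42 in pL2, against 9.78, 9.76 and 8.31 in WT, a difference of 0.85 ± 0.31 (adjusted p = 0.0441). The 8.31 of WT replicate 3 stands apart, and the other two WT arrays lie above pL2 replicate 1. Without WT replicate 3 the difference was 0.36 ± 0.30 (adjusted p = 0.445), and the call was also lost without pL2 replicate 2 or 3 (adjusted p = 0.131 and 0.165). Akr1c18, a reductase known for breaking down progesterone in mice, rose by 1.66 ± 0.58 (adjusted p = 0.0367), a call that held in 1 of 6 fits with an array left out, and Abcc4 by 0.95 ± 0.28 (adjusted p = 0.0115), which held in 5 of 6. The other genes that fell were Ptgfr (-1.45 ± 0.28), Tbxa2r (-1.16 ± 0.29) and Ptgir (-1.06 ± 0.24).

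These genes fell beside the smooth muscle, fibroblast and endothelial markers given above. With the smooth muscle mean as a covariate, 1 of the 18 genes was called at MRI, Ptgfr (-1.02 ± 0.30, adjusted p = 0.0299), and Ptger3 was -1.16 ± 0.43 (adjusted p = 0.0879). With the neutrophil mean or with the squamous and skeletal muscle means, none of the 18 was called at MRI. On chow and on HFD at Freising none of the 18 was called by limma, with 5 and 2 at an unadjusted p below 0.05. In pL2_FXR against FXR, Hpgds (1.39 ± 0.32) and Abcc4 (0.94 ± 0.28) rose and Ptgfr fell (-1.03 ± 0.28). Without FXR replicate 1, Hpgds was 1.03 (adjusted p = 0.0660) and Ptgfr -0.65 (adjusted p = 0.169), and Abcc4 held in 1 of 6 fits with an array left out. None of the smooth muscle, fibroblast or endothelial markers was called there, but the smooth muscle mean was 9.90 to 10.39 in pL2_FXR and 10.68 to 11.17 in FXR, and the fibroblast mean 8.06 to 8.51 in pL2_FXR and 8.63 to 8.73 in FXR, both without overlap. In the same comparison 5 of 6 neutrophil, 4 of 6 squamous basal and 3 of 8 squamous suprabasal markers rose. In FXR against WT, Slco2a1 was called: it read 10.19, 10.76 and 10.84 in FXR, against 9.78, 9.76 and 8.31 in WT, a rise of 1.32 ± 0.31 (adjusted p = 0.0206). With the squamous and skeletal muscle means as covariates, which fell in FXR as given above, it was 0.58 ± 0.40 (adjusted p = 0.558), and no gene of the list was called without WT replicate 3 or without FXR replicate 2 or 3.

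**Figure D3:**
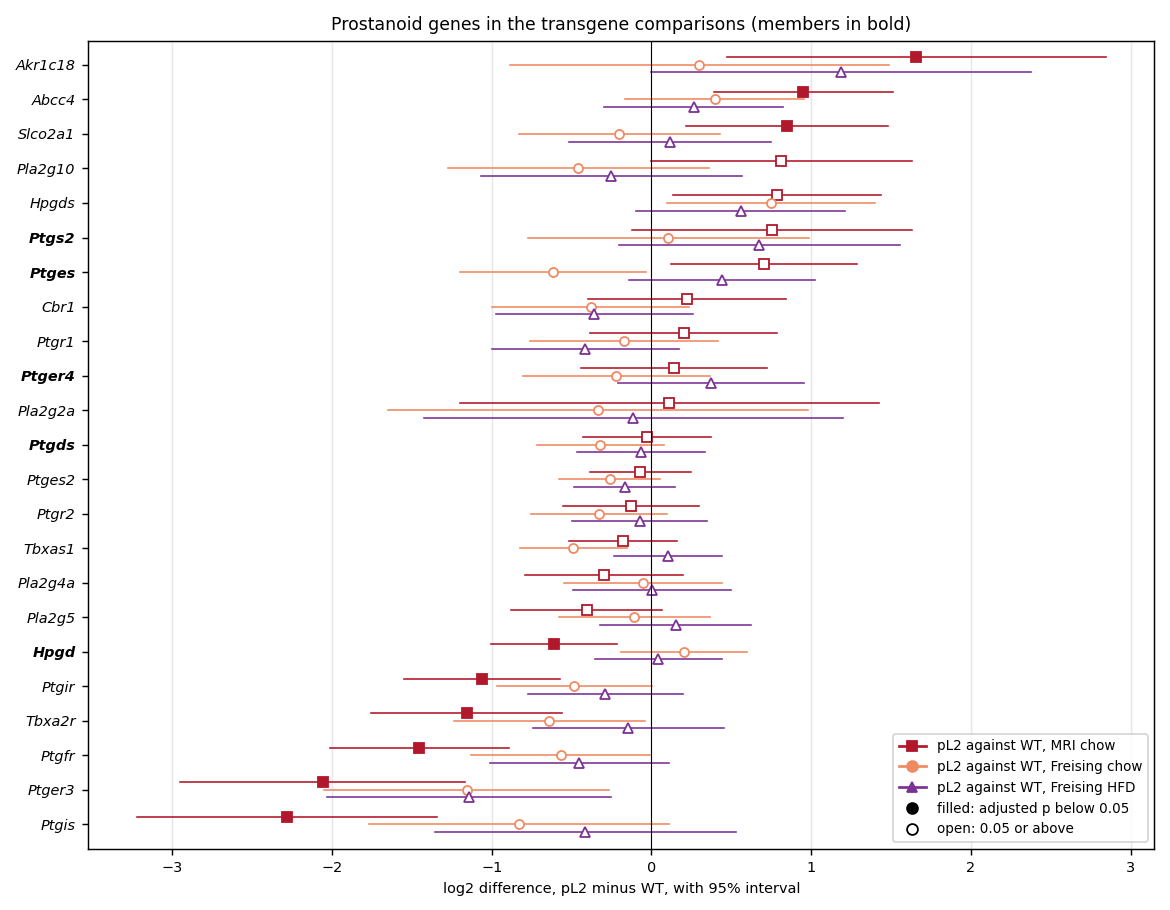
Log2 difference of pL2 minus WT (horizontal axis) with 95% intervals for the 5 tested prostaglandin genes (bold) and 18 further prostanoid genes (rows), at MRI on chow (squares), at Freising on chow (circles) and at Freising on HFD (triangles); filled markers have an adjusted p below 0.05. All filled markers are at MRI, from Ptgis at -2.28 to Akr1c18 at 1.66.

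Which genes ran most like each of these across the study was described with Pearson's r over the 16 group means, where groups share facility, series and array processing, so that r is a description with no test. For Ptgs2 the 5 closest were Zfp599 (0.93), the neutrophil surface gene Ly6g (0.92), Acod1 (0.91), Prok2 (0.90) and the neutrophil gelatinase Mmp9 (0.90). Over the single arrays, Zfp599 reached 0.39, whereas Ly6g and Mmp9 reached 0.71 and 0.72. For Ptges they were Ptpn12 (0.91), Ldha (0.91), Dad1 (0.89), Rbm34 (0.88) and Sec61a1 (0.88). For Hpgd they were Snrk (0.87), Gli3, Aff3, Sesn1 and Slc35f3 (0.83 each). Ptger4 was closest to Bzw2 (0.90), Slc39a8 (0.90), Pdia3 (0.88), Zdhhc15 (0.88) and Wfdc2 (0.87), and Ptgds to Erlin1 (0.87), Glrx2, Ube2g1, Glmp and Ywhaq (0.85 to 0.86).

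Within the set, Ptgs2 and Ptger4 had r = 0.80 over the 16 group means and 0.44 over the 48 arrays once each group's mean was subtracted. Ptgs2 and Ptges had 0.66 and 0.31, and Hpgd against Ptgs2 had -0.54 and -0.33. Ptges and Ptgds had 0.70 over group means and -0.19 over deviations within groups, so the likeness of that pair lay between groups and not within them. A list of 20 tested IL-1 and NF-kB target genes, such as Il1b, Cxcl2 and Lcn2, had 11 members higher and none lower in pL2 against WT on chow over both facilities, where 21.9% of all tested genes were called. Over deviations within groups, the mean of that list had r = 0.71 with Ptgs2, 0.47 with Ptges and -0.43 with Hpgd. The neutrophil marker mean had 0.49, 0.50 and -0.34 with the same genes.

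**Figure D4:**
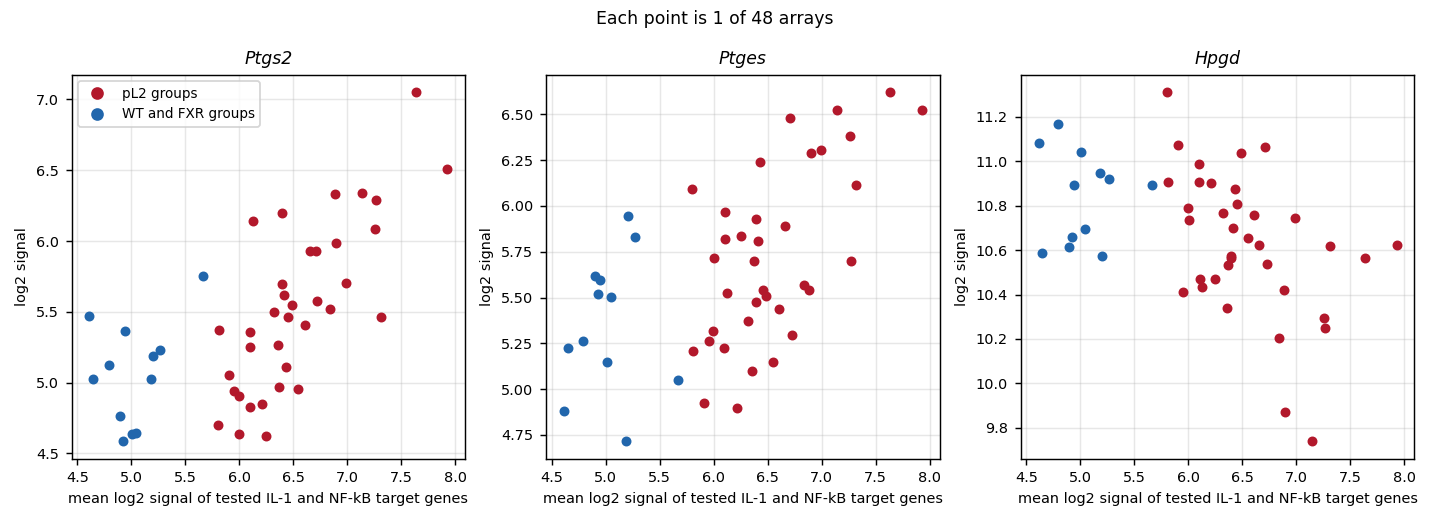
Log2 signal of Ptgs2, Ptges and Hpgd (vertical axes) against the mean log2 signal of 20 tested IL-1 and NF-kB target genes (horizontal axis) in 48 arrays; red points are pL2 groups and blue points WT and FXR groups. Ptgs2 and Ptges run upward and Hpgd downward among the pL2 arrays, and WT and FXR arrays sit at the left. The signals of the 2 kinds of group overlap on the vertical axes. Ptgs2 spans 4.62 to 7.05 in pL2 groups and 4.59 to 5.75 in the others, Ptges 4.90 to 6.62 and 4.72 to 5.94, and Hpgd 9.74 to 11.31 and 10.58 to 11.17.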

How the data were processed

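Total RNA of whole squamocolumnar junction and cardia tissue was hybridised to 48 Affymetrix arrays, 1 per sample. The authors deposited RMA values on the log2 scale, 1 signal for each probe set, from Affymetrix Expression Console, per the submitters' processing notes; versions and genome build are not given in the sources used here. Of 34390 probe sets, 23521 carry 1 symbol in the platform annotation, 1814 several and 9055 none. The brightest single-symbol probe set was taken for each of 22180 symbols, and 15242 were tested, those whose signal exceeded the array's median on 3 arrays or more. No 2 arrays were identical.

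Groups came from the labels, and replicate numbers, given in accession order, only name arrays. A limma 3.58.1 model (R 4.3.3) with 16 group means and 32 residual degrees of freedom gave 23 two-sided comparisons, Benjamini-Hochberg adjusted over the tested genes of each, and was tested on simulated data. Summaries used Python 3.11.15 and pandas 2.3.3. The members and lists were chosen with earlier results of these data known. The rule named all 7 members, pathway genes called in the mean transgene comparison or where a member was called, and the 5 genes closest to each member. Alternatives were 2 filters, the mean of a gene's probe sets, fits without the other groups, array weights, trended robust moderation, cyclic loess, 4 covariate settings, leaving out each array, and, added after the data were seen, 2 covariates and 5 arrays of high intestinal signal left out together. Sequences and gene starts came from RefSeq (GRCm38.p6), where 7 of 7 members matched. With 3 arrays a group, the number of arrays limits the precision.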

Additional observations from a re-analysis of the deposited data

Results flagged for a closer look

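In 3 results, every array of 1 group lay on one side of its control mean and every array of the other on the opposite side. In each, the interaction test did not pass after adjustment over all genes in the fit of all 48 arrays. For Ptges, the transgene difference at Freising minus that at MRI was -1.32 ± 0.41 (unadjusted p = 0.00258, adjusted p = 0.0770, limma): all 3 pL2 arrays lay below the WT mean at Freising and all 3 above it at MRI. For Hpgd the same difference was 0.81 ± 0.28 (unadjusted p = 0.00566, adjusted p = 0.103): all 3 pL2 arrays lay above the WT mean at Freising and all 3 below it at MRI. For Ptges, the diet difference in pL2 minus that in WT was 1.05 ± 0.41 (unadjusted p = 0.0137, adjusted p = 0.774): all 3 HFD arrays lay above the chow mean in pL2 and all 3 below it in WT. The 2 facilities differ in animals and sample series, which cannot be told apart. On chow at Freising all pL2 sample titles carry a suffix and no WT title does, whereas at MRI all pL2 and WT titles do. Genotype and title suffix therefore cannot be told apart on chow at Freising. The Hpgd result also uses the same MRI arrays as the Hpgd call in pL2 against WT. With pL2 replicate 1 at MRI left out, the facility difference of Ptges passed, at -1.60 ± 0.41 (adjusted p = 0.0179, limma). No test for outlying arrays was run.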

How the results depend on the processing

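No paired analysis was possible because the labels give no pairing of mice, and replicate numbers follow accession order. The single call of the set, Hpgd in pL2 against WT at MRI, kept its direction in all alternatives but was lost with the squamous and skeletal muscle, the smooth muscle or the neutrophil covariates (-0.51, -0.48 and -0.22, leaving 0 genes of the set called), and the number called ran from 0 to 2 when single arrays were left out. Array quality weights, whose estimation stopped before its tolerance, called more of the 5 genes: 3 in pL2 against WT at MRI, 1 on chow and 1 on HFD at Freising, 2 for the facility difference, 2 in pL2_IL8 against pL2, 1 in pL2_Lgr5_Notch1fl_fl, 2 in pL2_Dclk_Notch1fl_fl, 2 in pL2_Dclk_Notch2fl_fl and 1 between drivers. Cyclic loess, which moved the median of all genes by up to 0.10 on the log2 scale, called 1 for the facility difference (Hpgd, 1.01, adjusted p = 0.0458), and the Xist covariate called 1 in pL2_Dclk_Notch2fl_fl. Leaving out single arrays gave 0 to 1 calls for the facility and driver differences. All these counts leave out Ptger2, which was tested only with no filter on low signal.

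The pathway list was more sensitive. As the mean of both facilities it had 1 call with the squamous and skeletal muscle covariates and 0 with the smooth muscle or neutrophil covariate, against 8. At MRI it had 0, 1 and 0 with these covariates, and 5 to 9 with single arrays left out (5 without pL2 replicate 3). With array weights it had 5 on chow and 2 on HFD at Freising, and 0 to 1 with single arrays left out. In pL2_FXR against FXR it had 0 with the squamous and skeletal muscle or the neutrophil covariate, and 0 to 6 with single arrays left out (0 without FXR replicate 1, 1 without pL2_FXR replicate 2, 6 without pL2_FXR replicate 1). In FXR against WT it had 0 with the compared groups alone and with those covariates, and 0 to 1 with single arrays left out. Over all genes, the alternatives called 70 to 6235 genes in the mean transgene comparison and 216 to 6614 at MRI.

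Differences that changed sign were all uncalled. Of the 115 member differences, 68 were smaller than their standard error, and 56 of these changed sign under some alternative. The widest such moves, to beyond 0.5, were Ptgs2 to -1.29 in pL2_FXR against FXR and to -0.86 on chow at Freising and Ptges to -0.70 in the mean transgene comparison (neutrophil covariate), Ptgs2 to -1.05 in FXR against WT (squamous and skeletal muscle covariates), and Ptger4 to 0.67 in the IL8 line at 12 against 9 months (age). The following were at least as large as their standard error. With the squamous and skeletal muscle covariates, Ptgs2 was -0.33 in the mean transgene comparison, -0.51 at MRI and 0.36 for the facility difference. With the neutrophil covariate, Ptgs2 was -0.70, Hpgd 0.13 and Ptgds 0.080 in the mean comparison, Ptgs2 -0.54 and Ptges -0.15 at MRI, Ptgs2 -0.69 and Ptges -0.46 on HFD, and Ptges -0.73 and Hpgd 0.028 in pL2_FXR against FXR. With age as a covariate, Hpgd was -0.14 in the IL8 line at 12 against 9 months. Age varied within groups only in the Notch lines, so the age covariate cannot decide on the IL8 line, for Hpgd or for Ptger4. Ptgds for HFD in pL2 was -0.14 with array weights, and -0.13 (without pL2 HFD replicate 1) to 0.40 with single arrays left out. Ptger4 in activated against floxed Notch2 under the Lgr5 driver was -0.13 (without pL2_Lgr5_Notch2fl_fl replicate 3) to 0.53 with single arrays left out. The cause of these changes was not tested.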
